A study of Drosophila melanogaster with 4 samples.

Results

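Mitochondrial ribosomal proteins are encoded in the nucleus, made on cytoplasmic ribosomes and imported into mitochondria. There they join ribosomal RNAs made from the mitochondrial genome to form the mitoribosome, which translates the few proteins of that genome, all parts of the respiratory chain and ATP synthase. Many of these proteins descend from bacterial ribosomal proteins, while others have no bacterial counterpart and are particular to mitochondria. In the Drosophila ovary, mitochondria multiply in the germline and are passed to the oocyte, and germline differentiation is known to need ATP synthase.

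The genes described here are those whose FlyBase symbol is mRpL or mRpS followed by a number and optional letters. They numbered 72 of the 17699 genes in the count tables, 25 named for the small subunit and 47 for the large subunit, and 71 of them passed the filter on low counts. mRpL53, on chromosome 2R from 13954195 to 13955664 (dm6), had no count in any library. All 829 of its exon bases lie within exons of CG33155 on the same strand, and reads on 2 genes of the same strand are assigned to neither. mRpS5 is not analysed here, because its identifier in the annotation had no row in the tables.

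Polysome-seq compared mRNAs sedimenting with several ribosomes with the mRNAs of the starting lysate, to ask which transcripts are engaged in translation in germline cysts. The 4 libraries were 2 polysome fractions and 2 inputs, numbered 1 and 3 in each, and all came from ovaries of flies with the transgenes UAS-Dicer2, NosGAL4, bam RNAi and hs-bam. NosGAL4, a germline driver, expresses Dicer2 and the RNAi against bam, a gene needed for germ cells to leave the stem cell state, and hs-bam supplies bam again on heat shock, so that cysts form. All flies received 2 h at 37°C, 4 h at room temperature and 2 h more at 37°C, repeated over 2 days, and their ovaries were taken 3 to 5 days post-eclosion. Whole ovaries also hold somatic cells, and cysts of several stages were pooled. Polysome RNA came from a phenol-chloroform extraction and input RNA from TRIzol, so that the extraction and the fraction cannot be told apart.

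Gene counts totalled 19452659 and 22647905 in polysome 1 and 3, against 10646651 and 12298615 in input 1 and 3. Polysome 3 stood apart: its log2 CPM (counts scaled to a common library size with TMM factors) correlated with those of polysome 1 and the inputs at 0.786 to 0.802, against 0.841 to 0.873 between those 3 libraries. Polysome 1 stood apart in the reads that named no gene, at 10.8%. They were 33.9% in polysome 3, and 42.6% and 33.2% in input 1 and 3. The libraries also differed in the markers of other ovarian cells. Follicle cell and eggshell genes summed to 14540 and 33550 TPM in polysome 1 and 3, against 6620 and 6631 TPM in the inputs, and 13 of 13 had a positive fold change. Muscle sheath genes summed to 21170 and 5096 TPM in the polysomes, against 14540 and 17740 TPM in the inputs, and 9 of 9 had a negative one. Germline markers summed to 679 and 818 TPM in the polysomes, against 657 and 755 TPM in the inputs (3 of 8 positive). These markers included bam, the target of the RNAi, which hs-bam supplies again. The 4 hemocyte and fat body markers summed to 66.1 and 30.6 TPM in the polysomes, against 40.1 and 46.1 TPM in the inputs (2 of 4 positive). None of the tested markers was at 0 in any library, and the part of these shifts in the results below was not tested. In such bulk samples fewer cells of a type, less RNA per cell and, between fractions, less engagement with ribosomes cannot be told apart.

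Mitoribosomal mRNAs were of moderate abundance and lay close to each other. In TPM, which scales counts by the summed exon length of each gene to a common total, the 71 genes had a median of 79.8 and 105 TPM in polysome 1 and 3, against 62.8 and 56.3 TPM in input 1 and 3. These medians stood at percentiles 78.2 and 83.3 of tested protein-coding genes in the polysomes, and 77.9 and 74.8 in the inputs. Over all genes tested the median was also higher in the polysomes, at 29.40 and 29.39 TPM, against 23.78 and 24.38 TPM in the inputs. In CPM the 71 genes had a median of 35.1 and 51.4 in the polysomes, against 36.65 and 28.4 in the inputs. On that scale polysome 1 lay below input 1. The genes ranged from 20.03 to 195 TPM in polysome 1 and 35.6 to 266 TPM in polysome 3, against 18.5 to 213 TPM in input 1 and 12.4 to 211 TPM in input 3. The SD of log2(TPM + 1) across them was 0.65 and 0.63 in the polysomes, against 0.65 and 0.74 in the inputs, whereas over all genes tested it was 2.23 and 2.42 in the polysomes, against 2.27 and 2.15 in the inputs. The upper quartile of the TPM of the 71 genes was 1.75 and 1.83 times the lower one in the polysomes, against 1.64 and 1.73 times in the inputs. For nuclear-encoded respiratory chain and ATP synthase genes, which include nearly silent duplicates such as COX5BL, this ratio was 2.99 and 3.63 in the polysomes, against 3.26 and 3.09 in the inputs. For cytoplasmic ribosomal protein genes it was 1.81 and 1.82 in the polysomes, against 1.785 and 2.098 in the inputs. A narrow spread was therefore not particular to mitoribosomal genes. Counts behind single mitoribosomal genes lay between 197 and 3317 in the polysomes, against 69 and 949 in the inputs.

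**Figure D1:**
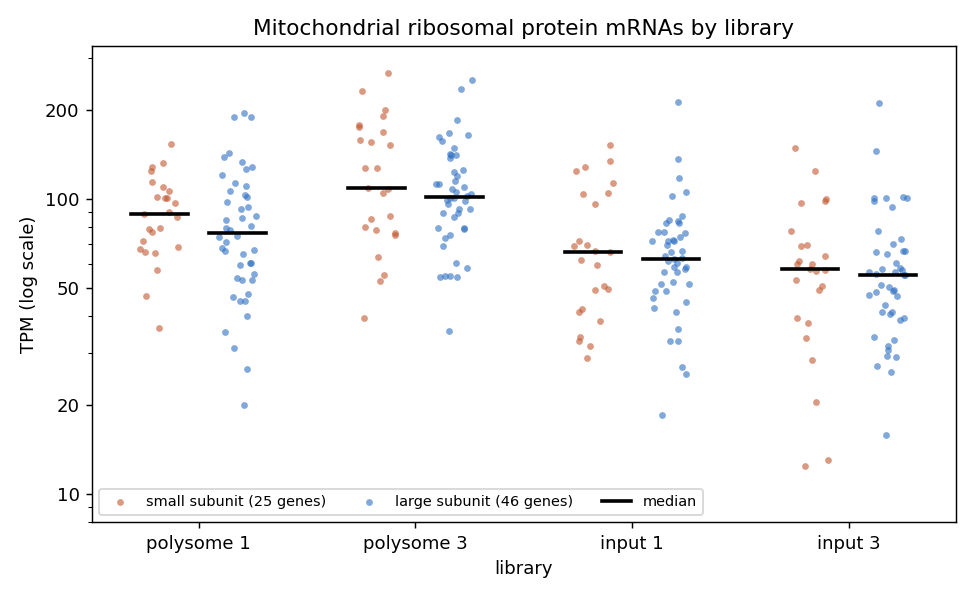
Level of each of 71 mitochondrial ribosomal protein mRNAs in the 4 libraries, as TPM on a log axis, with small-subunit genes in orange, large-subunit genes in blue and a black bar at the median. The medians of both subunits lie highest in polysome 3, at 109 TPM for the small and 102 TPM for the large subunit.

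mRpL33, a small zinc-ribbon protein of the large subunit in bacteria, had the highest mean level in the inputs. It was at 190 and 252 TPM in polysome 1 and 3, against 213 and 211 TPM in input 1 and 3, and the fractions overlapped. mRpS7, whose Escherichia coli homolog starts assembly of the head of the small subunit, was at 154 and 266 TPM in the polysomes, against 152 and 148 TPM in the inputs, so polysome 3 alone stood clear of the others. The mitochondria-specific mRpS33 was at 77.4 and 169 TPM in the polysomes, against 134 and 124 TPM in the inputs. For mRpL35 the levels were 138 and 110 TPM in the polysomes, against 137 and 93.6 TPM in the inputs, and for mRpS11, a platform protein of the small subunit in bacteria, they were 101 and 158 TPM, against 129 and 97.0 TPM. In the order of mean input level, mRpL33 and mRpS7 had inputs that did not overlap those of the next gene, while the inputs of mRpS33, mRpL35 and mRpS11 overlapped each other.

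At the low end of the inputs were mRpS2, mRpL17, mRpL21, mRpS30 and mRpS16. mRpS2, a homolog of a bacterial protein at the neck between head and body of the small subunit, was at 72.0 and 75.5 TPM in the polysomes, against 28.9 and 13.0 TPM in the inputs. Here both polysome libraries lay above both inputs. mRpL17, a homolog of a protein beside the exit tunnel of the bacterial ribosome, was at 26.5 and 75.4 TPM in the polysomes, against 27.0 and 25.9 TPM in the inputs, and only polysome 3 stood out. mRpL21 was at 20.03 and 35.6 TPM in the polysomes, against 44.6 and 15.8 TPM in the inputs, and mRpS16 at 46.7 and 127 TPM, against 42.4 and 20.5 TPM. In both of these the 2 inputs differed by more than 2-fold. The fractions of mRpL21 overlapped, while both polysome libraries of mRpS16 lay above both inputs in TPM but not in CPM, where polysome 1 had 13.5 and input 1 had 15.3.

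The levels of small-subunit and large-subunit genes were close to each other in every library. In polysome 1 the median was 88.8 TPM for the small and 76.7 TPM for the large subunit, and in polysome 3 it was 109 and 102 TPM. In input 1 it was 66.2 TPM for the small and 62.7 TPM for the large subunit, and in input 3 it was 57.8 and 55.3 TPM. On the log2(TPM + 1) scale the small-subunit median therefore lay 0.21 and 0.097 above the large-subunit median in the polysomes, against 0.077 and 0.063 in the inputs. The small subunit was on the higher side in 4 of 4 libraries. Single genes of a subunit varied with an SD of 0.48 to 0.86 on this scale, and the distance between the medians was not tested. Mean levels were 90.0 and 126 TPM for the small subunit in polysome 1 and 3, against 72.8 and 61.6 TPM in the inputs, and 84.8 and 110 TPM for the large subunit in the polysomes, against 67.2 and 60.7 TPM in the inputs. The summed TPM of the small subunit over that of the large was 0.577 and 0.623 in the polysomes, against 0.589 and 0.551 in the inputs, so the polysome range held the value of input 1 and the fractions overlapped.

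mRNAs from 55 of the 71 genes had a higher fitted level in polysomes than in input, beside 49.8% of all genes. The other 16 had a lower one, and none of the 71 passed the test. The median log2 fold change of polysome over input was 0.41, with quartiles of 0.070 and 0.72, beside a median of -0.0032 over all genes. By edgeR's quasi-likelihood test with Benjamini-Hochberg adjustment, 0 of 71 genes were called at an adjusted p under 0.05, where 0.0% of the 9038 genes tested were called, and the smallest adjusted p was 0.956. At an unadjusted p under 0.05 there were 4 of 71 on the higher and 0 on the lower side, beside 2.15% and 2.53% of all genes. DESeq2 called 0 of 71, beside 0.463% of all genes (0.192% higher, 0.271% lower). With the replicate numbers blocked, edgeR called 0 of 71 at a smallest adjusted p of 0.711, beside 0.52% of all genes (0.376% higher, 0.144% lower). In CPM both polysome libraries lay above both inputs for 25 genes (35.2%), beside 17.2% of all genes, and below both for mRpL36 alone, beside 18.1%. The SE of a single gene's fold change had a median of 0.53.

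**Figure D2:**
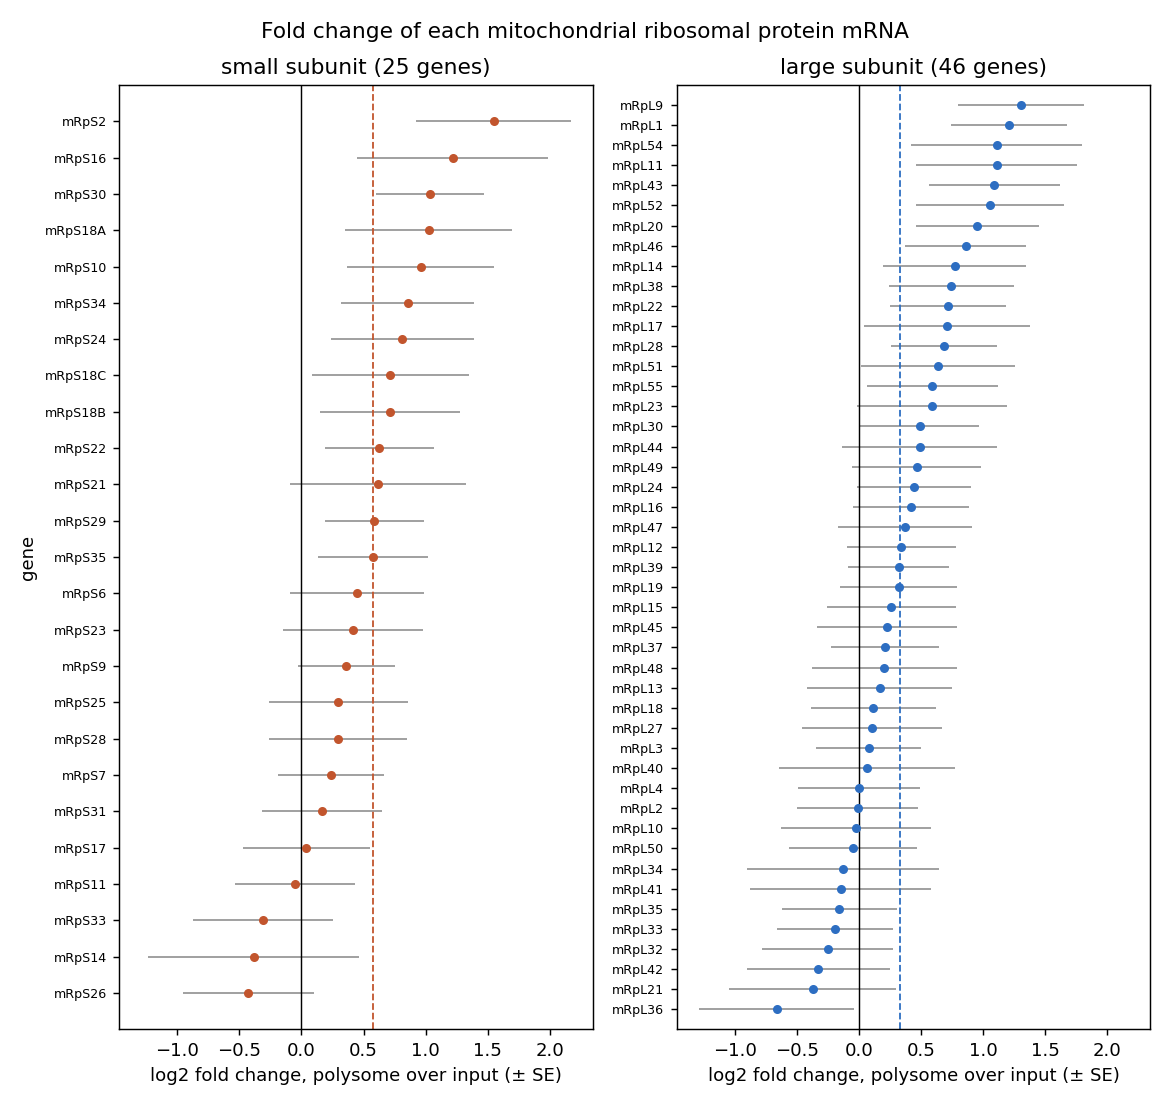
Log2 fold change of polysome over input for each mitoribosomal gene, with bars of 1 SE from the fit over 4 libraries and a dashed line at the median of each subunit. Small-subunit genes run from -0.43 to 1.55 and large-subunit genes from -0.67 to 1.30, and 0 of 71 passed the test.

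Genes named for the small subunit had a median log2 fold change of 0.58, with 21 of 25 on the higher side. Genes named for the large subunit had one of 0.33, with 34 of 46. The small-subunit group includes mRpS18A and mRpS30, whose mammalian proteins sit in the large subunit. Each of these had a fold change above both medians, and fold changes by subunit were not recomputed with them moved. Both polysome libraries lay above both inputs for 10 of 25 small-subunit and 15 of 46 large-subunit genes, beside 17.2% of all genes. The quartiles were 0.24 and 0.81 for the small and 0.015 and 0.70 for the large subunit, so the distributions overlapped over most of their range, and the difference between subunits was not tested because genes are not replicates. Grouping by origin left out mRpS18A and mRpS18B, which belong to neither class here. The 43 genes with a bacterial counterpart had a median of 0.36 with 32 higher, and the 26 tested mitochondria-specific genes had one of 0.44 with 21 higher. Without polysome 3 these medians were 0.076, with 24 of 43 higher, and 0.23, with 15 of 26. The level of the bacterial-type genes had a median of 86.7 and 108 TPM in the polysomes, against 66.3 and 57.2 TPM in the inputs, and that of the mitochondria-specific genes one of 80.3 and 97.7 TPM, against 58.2 and 50.9 TPM.

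The smallest p values on the higher side belonged to genes named for the large subunit and to mRpS2 and mRpS30, named for the small subunit. mRpL1, on chromosome 3R from 8301440 to 8302770, is the homolog of the mobile L1 stalk of the bacterial ribosome, which helps spent tRNA to leave. It had 59.4 and 81.4 CPM in polysome 1 and 3, against 34.3 and 26.6 CPM in input 1 and 3, a log2 fold change of 1.21 ± 0.47 (SE, n = 2 libraries each). Neither polysome library overlapped the inputs, and the unadjusted p by edgeR was 0.0324. mRpL9 (chromosome 3R, 15330738 to 15331588), homolog of an elongated bacterial large-subunit protein, had 52.8 and 44.6 CPM in the polysomes, against 17.2 and 22.3 CPM in the inputs, or 1.30 ± 0.51. In this gene polysome 1 was the higher of the polysome libraries. For mRpS2, on chromosome 2L from 4849439 to 4850419, values of 35.2 and 39.0 CPM in the polysomes stood against 17.6 and 7.73 CPM in the inputs, the largest fold change of the set at 1.55 ± 0.62.

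mRpS30, on the X chromosome from 15786047 to 15788288, encodes a protein that sits in the large subunit of mammalian mitoribosomes despite its name. It was at 74.0 and 99.5 CPM in the polysomes, against 46.7 and 38.0 CPM in the inputs, a log2 fold change of 1.04 ± 0.43, with no overlap between fractions. mRpL43, a mitochondria-specific protein, was at 35.1 and 43.3 CPM in the polysomes, against 17.0 and 19.9 CPM in the inputs (1.09 ± 0.53), and each fraction was tight. mRpL20, whose Escherichia coli homolog binds ribosomal RNA early in assembly, was at 60.3 and 47.9 CPM in the polysomes, against 33.6 and 22.3 CPM in the inputs (0.95 ± 0.50). All 6 of these genes had both polysome libraries above both inputs, and all had an adjusted p of 0.956.

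Fold changes on the lower side were smaller and the fractions mostly overlapped. mRpL36, on chromosome 3L from 8124584 to 8125132, is the homolog of a small zinc-binding protein of the bacterial large subunit. It was at 11.8 and 16.2 CPM in the polysomes, against 23.7 and 20.7 CPM in the inputs, a log2 fold change of -0.67 ± 0.63. The mitochondria-specific mRpS26 was at 44.1 and 25.4 CPM in the polysomes, against 57.0 and 36.5 CPM in the inputs, or -0.43 ± 0.53, so that polysome 1 exceeded input 3. mRpL42, also mitochondria-specific, was at 27.0 and 18.02 CPM in the polysomes, against 34.3 and 22.2 CPM in the inputs, or -0.33 ± 0.57. For mRpL21, mRpS33 and mRpL32 the log2 fold changes were -0.37 ± 0.67, -0.31 ± 0.56 and -0.25 ± 0.53, and each of these and of mRpL42 turned positive when a library was left out. Their values without a library reached 0.58 for mRpL21, 0.22 for mRpS33, 0.019 for mRpL32 and 0.017 for mRpL42. All 6 genes had adjusted p of 0.997 to 1.00.

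Translational efficiency as the study defines it, the log2 ratio of (polysome TPM + 1) to (input TPM + 1) within a replicate number, showed where the shift lay. In replicate 1 the median over the 71 genes was 0.30, beside 0.32 over all genes tested. In replicate 3 it was 0.93, beside 0.086 over all genes. The mitoribosomal genes thus matched the bulk of mRNAs in replicate 1 and lay above it in replicate 3. Efficiency was above 0 in 46 of 71 genes in replicate 1, beside 67.9% of all genes, and in 67 of 71 in replicate 3, beside 53.2%. It was above 0 in both for 45 of 71, beside 37.7%. For 3 of 71, mRpL36, mRpL42 and mRpS26, it was below 0 in both, beside 1440 of the 8959 genes with an efficiency. Replicate 3 gave the higher efficiency for 55 of 71 genes (77.5%), against 42.7% of all genes. Both ends of the ratio moved: 48 of 71 genes had a higher TPM in polysome 3 than in polysome 1 (67.6%, beside 45.1% of all genes), and 20 of 71 had a higher TPM in input 3 than in input 1 (28.2%, beside 55.0%).

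**Figure D3:**
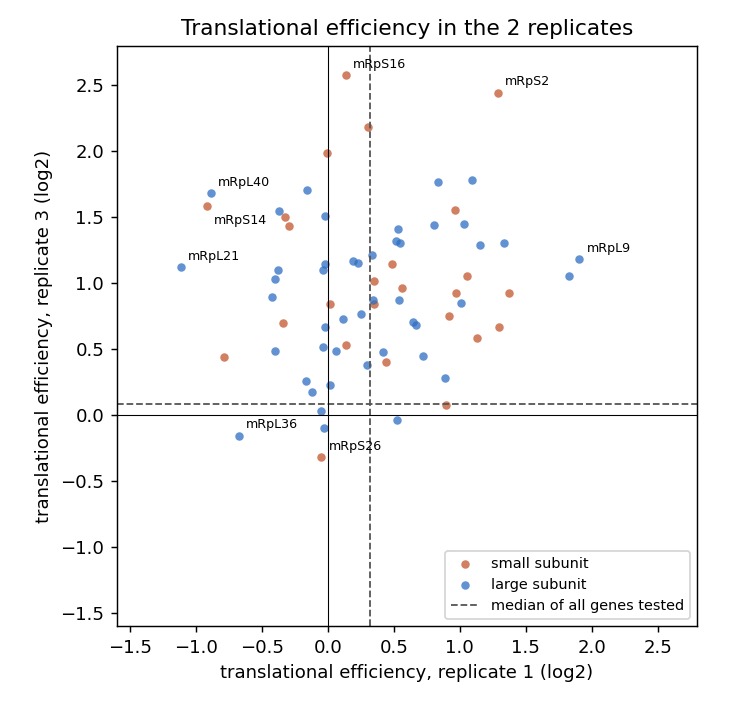
Translational efficiency (log2) of each mitoribosomal gene in replicate 1 on the x axis and replicate 3 on the y axis, with dashed lines at the medians of all genes tested, 0.32 and 0.086. Most points lie above the horizontal line, while they fall on both sides of the vertical line.

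Small-subunit genes had a median efficiency of 0.35 in replicate 1 and 0.93 in replicate 3, and large-subunit genes one of 0.24 and 0.96. The order of the subunits therefore differed between the replicates. Across the 71 genes the efficiencies of replicates 1 and 3 correlated at r = 0.11 (Spearman's rho = 0.12), and over all genes at r = 0.065, where genes share libraries and are not independent. The replicates thus did not rank these mRNAs alike. Levels were ranked more alike, with r of 0.49 between the polysome libraries and 0.59 between the inputs on the log2(TPM + 1) scale. The correlation of efficiency with log exon length over these genes was weak, with r of 0.12 in replicate 1 and 0.091 in replicate 3.

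The replicates were closest for mRpS24, mRpL16, mRpL43 and mRpS31. mRpS24, the homolog of the bacterial S3 protein at the mRNA entry, had an efficiency of 1.05 in replicate 1 and 1.06 in replicate 3. For mRpL16, whose bacterial homolog lines the tRNA sites, it was 0.67 and 0.68, for mRpL43 1.34 and 1.30, and for mRpS31 0.44 and 0.40. These genes lay above the median of all genes in both replicates. The replicates were farthest apart for mRpL40, at -0.89 in replicate 1 and 1.69 in replicate 3, for mRpS14, at -0.92 and 1.59, and for mRpS16, at 0.14 and 2.58. In each of these genes input 3 was below input 1, by the widest margin in mRpS14, which was at 36.5 and 39.4 TPM in the polysomes, against 69.7 and 12.4 TPM in the inputs. mRpL21, described above, had the same form with the signs opposed between replicates.

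A bacterial S18 protein has 3 relatives in animal mitochondria, and their libraries lay differently. mRpS18A, on chromosome 3R from 8561917 to 8562593 whose mammalian protein sits in the large subunit, had 20.3 and 75.2 CPM in the polysomes, against 25.4 and 21.5 CPM in the inputs. Polysome 3 alone stood out, and its 232 TPM there was exceeded by mRpS7, mRpL33 and mRpL55. Its log2 fold change was 1.02 ± 0.67, and -0.23 without polysome 3. mRpS18B was at 30.0 and 52.5 CPM in the polysomes, against 18.8 and 31.5 CPM in the inputs (0.72 ± 0.56, and 0.24 without polysome 3). mRpS18C, the paralog at the bacterial position, was at 22.3 and 23.1 CPM in the polysomes, against 11.1 and 16.6 CPM in the inputs (0.72 ± 0.63), and it alone of the 3 had both polysome libraries above both inputs. Without polysome 1, mRpS18A was the only mitoribosomal gene called (log2 fold change 1.73, adjusted p = 0.0343 by edgeR), in a fit that called 7.24% of all genes, 3.44% as higher and 3.8% as lower.

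The size of the shift moved most with the polysome libraries. Without polysome 3 the split was 40 genes higher and 31 lower and the median log2 fold change was 0.079, and without polysome 1 the split was 63 and 8 and the median 0.67. Leaving out an input gave 0.58 without input 1 and 0.31 without input 3. Without polysome 3 the small-subunit median was 0.24 and the large-subunit median 0.041, and without polysome 1 they were 0.74 and 0.63. The small subunit had the higher median in each of these fits except that without input 1, where the values were 0.58 and 0.59. Besides mRpS18A, 0 of 71 genes were called in these fits, where 0.549% of all genes were called without polysome 3 (0.0207% higher, 0.528% lower), 0.0816% without input 1, all 0.0816% higher, and 0.0% without input 3. Such a fit takes the spread of a fraction with 1 library from the fraction with 2.

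**Figure D4:**
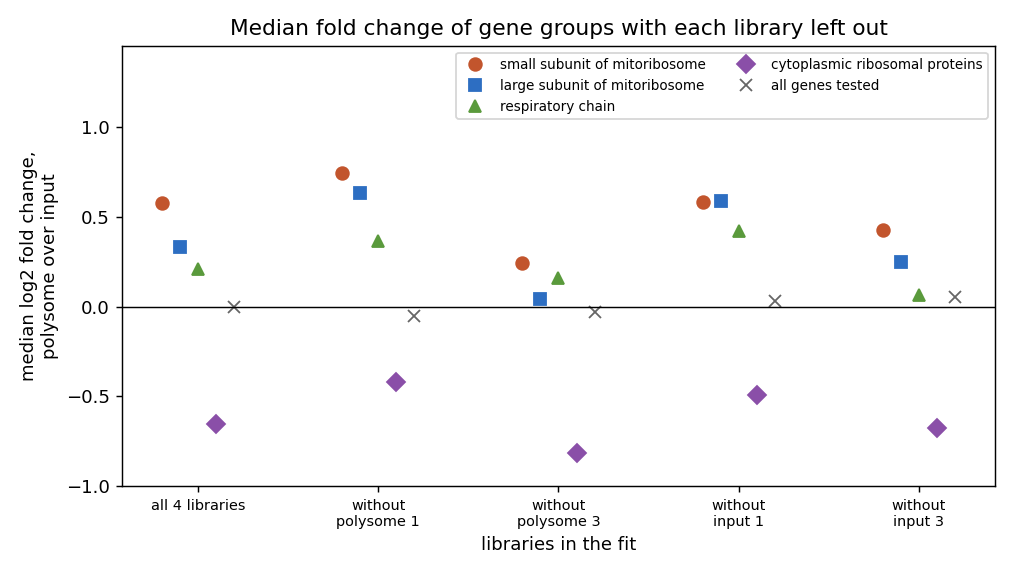
Median log2 fold change of polysome over input for the subunits of the mitoribosome, the respiratory chain, cytoplasmic ribosomal proteins and all genes tested, with all 4 libraries and with each library left out. Cytoplasmic ribosomal proteins lie between -0.81 and -0.42 in each fit, and the large-subunit median is 0.041 without polysome 3.

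mRNAs of the other ribosome of the cell lay on the opposite side. Of 82 tested genes for cytoplasmic ribosomal proteins, taken by symbol, 79 had a lower and 3 a higher level in polysomes, with a median log2 fold change of -0.65, and 60 had both polysome libraries below both inputs (73.2%, beside 18.1% of all genes). Their median efficiency was -0.60 in replicate 1 and -0.11 in replicate 3. RpS21, of the small subunit, was at 849 and 1220 TPM in the polysomes, against 1846 and 2314 TPM in the inputs (-1.26 ± 0.42), and RpL37A, of the large subunit, at 1711 and 2778 TPM, against 4101 and 5200 TPM (-1.30 ± 0.44). On the higher side were RpS5b (0.42 ± 0.41) and RpS10a (0.27 ± 0.61), paralogs of more commonly used subunit genes. RpS5b was at 0.067 without polysome 3, and RpS10a was at -0.19 without polysome 1 and -0.17 without input 3. The 82 genes together held 22.6% and 28.4% of all TPM in the polysomes, against 35.6% and 32.9% in the inputs. Mitoribosomal genes held 0.615% and 0.820% in the polysomes, against 0.491% and 0.433% in the inputs. The median TPM over all genes tested was also higher in the polysomes, at 29.40 and 29.39, against 23.78 and 24.38 in the inputs. By edgeR 0 of 82 were called, with 11 on the lower side at an unadjusted p under 0.05 (beside 2.53% of all genes), and 0 by DESeq2. All on the lower side, 6 were called without polysome 3 (beside 0.528% of all genes) and 2, RpS19b and RpS5a, without polysome 1 (beside 3.8%). Both groups were measured in the same libraries, and the difference between them was not tested.

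Respiratory chain and ATP synthase genes mostly belong to complexes that also hold products of mitochondrial translation. Their median log2 fold change was 0.21, with 45 of 68 higher and 23 lower, beside 49.8% of all genes higher. By edgeR or DESeq2 0 were called, and 1, on the higher side, had an unadjusted p under 0.05 by edgeR (beside 2.15% of all genes). Both polysome libraries lay above both inputs for 22 of them (32.4%, beside 17.2% of all genes). Their median was 0.064 without input 3 and 0.42 without input 1. COX7AL was called as lower without polysome 1, and UQCR-6.4 as lower without polysome 3, in fits that called 3.8% and 0.528% of all genes as lower. ATPsyngamma, the rotor stalk of ATP synthase, was at 386 and 514 TPM in the polysomes, against 218 and 167 TPM in the inputs (0.97 ± 0.41), and the complex I subunit ND-19 at 177 and 181 TPM, against 69.3 and 97.0 TPM (0.85 ± 0.45). ND-B14.5B, also of complex I, was at 136 and 90.6 TPM in the polysomes, against 183 and 124 TPM in the inputs (-0.71 ± 0.46), and COX5BL had no counts in either polysome library, against 5.24 and 3.33 TPM in the inputs. The median efficiency of this group was 0.35 in replicate 1 and 0.68 in replicate 3.

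Among 3 mitoribosomal genes with other symbols, bonsai alone kept its direction with each library left out. bonsai, which encodes the S15 protein, was at 147 and 120 TPM in the polysomes, against 62.9 and 67.7 TPM in the inputs (0.77 ± 0.43). tko, which encodes the S12 protein of the decoding centre and is known for its bang-sensitive mutants, was at 14.4 and 41.2 TPM in the polysomes, against 23.4 and 10.9 TPM in the inputs (0.45 ± 0.75, and -0.58 without polysome 3). CRIF was at 89.1 and 79.5 TPM in the polysomes, against 83.8 and 40.6 TPM in the inputs (0.17 ± 0.55, and -0.27 without input 3). Only for bonsai did both polysome libraries lie above both inputs.

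Factors that work on the mitoribosome were also mostly on the higher side. Of 9 tested mitochondrial translation factors 8 had a positive fold change, beside 49.8% of all genes. Their median was 0.36, and 0 were called by edgeR or DESeq2, also at an unadjusted p under 0.05. Both polysome libraries lay above both inputs for 3 of the 9, beside 17.2% of all genes. mEFTu1, the elongation factor that brings tRNA to the ribosome, was at 148 and 206 TPM in the polysomes, against 103 and 90.4 TPM in the inputs (0.62 ± 0.39). mRRF2, a ribosome recycling factor, was at 18.4 and 10.5 TPM in the polysomes, against 1.13 and 4.68 TPM in the inputs (2.05 ± 0.98). Its input 1 level rested on 19 counts, and its fold change was 1.37 without input 1 and 3.38 without input 3. mEFTs, the exchange factor of mEFTu1, was at 68.3 and 79.1 TPM in the polysomes, against 51.7 and 72.2 TPM in the inputs. Its fitted fold change, the only negative one, was -0.0022 ± 0.44, while its efficiency, taken from TPM, was 0.39 in replicate 1 and 0.13 in replicate 3. Without polysome 3 the median of this list was -0.17, and without polysome 1 it was 0.68. In the fit without polysome 1 the recycling factor mRRF1 was called at a log2 fold change of 2.32, beside 3.44% of all genes called as higher, and without polysome 3 its value was -1.20. Of 13 tested genes for mitochondrial RNA synthesis and processing 9 were positive and 4 negative, with a median of 0.25, and of 0.10 without input 3. Both polysome libraries lay above both inputs for 2 of the 13 (15.4%), beside 17.2% of all genes. TFAM, which packages mitochondrial DNA and starts its transcription, was at 146 and 160 TPM in the polysomes, against 79.8 and 95.6 TPM in the inputs (0.55 ± 0.39), and mldr at 9.68 and 17.5 TPM, against 6.29 and 5.62 TPM (0.94 ± 0.71). On the other side bsf, the LRPPRC relative that stabilises mitochondrial mRNAs, was at 57.5 and 54.9 TPM in the polysomes, against 53.5 and 71.5 TPM in the inputs (-0.41 ± 0.37), and mTTF, a transcription termination factor, at 48.8 and 31.3 TPM, against 53.7 and 28.1 TPM (-0.30 ± 0.56, and 0.26 without input 1).

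Mitoribosomal genes shared a compact structure and close neighbours. Their summed exon length ran from 327 to 2078 bases with a median of 783, beside 2070 over all genes tested. Short exon length was not particular to them, with a median of 843 for respiratory chain genes and 909.5 for cytoplasmic ribosomal protein genes. Mitoribosomal genes lay on all major chromosome arms, with 12 each on 2L and 2R, 16 on 3L, 21 on 3R and 11 on X. Exons of 42 of the 72 genes overlapped an exon of a gene on the opposite strand (58.3%), against 27.5% of the 13821 protein-coding genes in the tables. A further overlap on the same strand was found for mRpL13, mRpL53 and mRpS14 (4.17%, against 7.67%), and in mRpL13 it covered 35.2% of exon bases. With such neighbours, reads of both strands fall on the same bases. The unstranded column held 20.5% as many reads as the stranded one for mRpS24, 32.5% for mRpS21 and 49.8% for mRpL34, and its use moved the log2 fold change of mRpS24 to 2.42, where the strand-specific value was 0.81, and that of mRpL34 to 1.47, where it was -0.13.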

How the data were processed

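The authors aligned reads to dm6 using STAR 2.6.1c (submitters' processing notes) and deposited raw gene counts, 1 column unstranded and 1 for either strand. The reverse-strand column, which held 95.3% to 97.1% of strand-assigned counts, was used. Reads that named no gene were 10.8% of polysome 1 and 33.2% to 42.6% of the other libraries, and stayed out of totals. Names, lengths and coordinates came from the annotation BDGP6.54 (dm6 coordinates), which held 17561 of 17699 identifiers. The other 138 held 1.05% to 1.19% of counts.

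Groups came from the labels. Genes were tested with edgeR 4.0.16 in R 4.3.3 (quasi-likelihood, TMM factors, filterByExpr, fraction as the only term, Benjamini-Hochberg over all genes). CPM are TMM-scaled, SE come from the test statistic, and TPM use summed exon length. Fold changes come from the fit on counts, also where they stand beside TPM, and the scales differ. Over all genes tested the median efficiency from TPM was 0.20, where the median log2 fold change was -0.0032. The scripts were tested on simulated data. The alternatives tried were RLE or upper-quartile factors, DESeq2 1.42.0, no filter, at least 50 counts in 2 libraries, unstranded counts, a replicate block, a length trend removed, each library left out, pseudocounts of 0.1 and 5 TPM, at least 10 counts in every library, coding length, and mRpS18A and mRpS30 moved to the large subunit.

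The study divides a polysome value by that of the lysate it came from. Libraries of equal number were therefore paired for efficiency and in the replicate block, but not in the main fit. Deviations of polysome and input from their group means correlated at r = -0.060 across 9038 genes, so same-numbered libraries did not deviate together. Nothing says that replicates are separate pools of flies, and the p-values therefore reflect no more than the spread among the 4 libraries. Members and lists were chosen with earlier results of these data known. Genes are named where they had the 6 smallest p per direction, the 5 highest or lowest input levels, the 4 closest or farthest replicate efficiencies by absolute difference, or are S18 paralogs, and from each companion list the 2 smallest p per direction. mRpL13, mRpL34, mRpL38, mRpL55, mRpS21, mRRF1, COX7AL, UQCR-6.4, RpS19b, RpS5a and the genes outside the rule were named after their values were seen. The germline, follicle, muscle, and hemocyte and fat body markers were used only to describe the libraries. An ABC transporter entered by mistake was removed from the companion list after its values had been opened. Companion symbols absent from the annotation were left out.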

Additional observations from a re-analysis of the deposited data

Results flagged for a closer look

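Reads on the strand opposite to the counted one were examined in the 29 tested mitoribosomal genes whose exons overlap no other gene. No comparison above uses that strand on its own. They numbered 51 in polysome 1 and 188 in polysome 3, against 69 in input 1 and 177 in input 3. As a share of the reads of these genes on either strand they made up 0.208% and 0.456% in the polysomes, against 0.556% and 1.67% in the inputs. The gene with the most such reads was mRpL40 in polysome 1 (30) and mRpL38 in polysome 3 (151), against mRpL20 in both inputs (36 in input 1 and 37 in input 3). Over all genes (overlaps included), the counted strand held 97.1% and 96.3% of strand-assigned counts in the polysomes, against 96.4% and 95.3% in the inputs. The opposite-strand reads were set against no separate measure of strand errors in the libraries.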

How the results depend on the processing

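Across all genes 0 were called, against 104 with no count filter, 41 by DESeq2, 47 with the replicate block, 46 with the replicate block and the length trend removed, and 0 to 695 with a library left out. Of these calls 0 were mitoribosomal genes, except for mRpS18A without polysome 1, so their count ran from 0 to 1. Their median log2 fold change was 0.34 with the replicate block, and the block changed no call among them. The small-minus-large difference in the inputs, 0.070 on average, was 0.032 with coding length and 0.10 with mRpS18A and mRpS30 in the large subunit; the cause was not tested. With a library left out the log2 fold change ran from -0.61 to 0.017 for mRpL42, -0.95 to 0.58 for mRpL21, -1.05 to 0.22 for mRpS33 and -0.53 to 0.019 for mRpL32. The other 151 alternative values of the 12 genes with the smallest p kept their direction and their side of the threshold. With 2 libraries in each fraction even the largest log2 fold change among these genes, 1.55 ± 0.62 for mRpS2, had an adjusted p of 0.956 by edgeR.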
